A study of Mus musculus with 70 samples.

Results

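Resident Kupffer cell identity is described here through 10 genes, Timd4, Clec4f, Vsig4, Cd5l, Marco, Folr2, Cd163, Nr1h3, Spic and Id3, taken by symbol and present in each of the 3 deposited count tables. They are 10 of the 23732 symbols that the tables share, and each was detected in every library. RNA was sequenced from mouse liver macrophages sorted as F4/80 high and CD11b low, and from total liver. KI mice carried OpnKI Mye, which the name gives as osteopontin knocked in for myeloid cells, and WT mice carried Lyz2.Cre+/+ alone, and both genotypes of both sexes had been kept for 24 weeks on a NASH (nonalcoholic steatohepatitis) diet or a control diet. In macrophages there were 5 libraries of male KI NASH, 4 of male KI control, 5 of male WT NASH and 4 of male WT control, and 6, 4, 6 and 4 of the same groups in females. Total liver had 4 libraries a group in both sexes, except male WT control with 3 after a pair was merged. Lyz2.Cre is active in myeloid cells generally, so Kupffer cells, recruited macrophages and neutrophils can all carry the knock-in. The labels do not say which libraries come from separate animals, so p-values measure the spread between these libraries.

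Kupffer cells are the macrophages that live along the liver sinusoids, where they take up bacteria, dying cells, old red cells and lipoproteins from portal blood. Their identity is held by transcription factors such as LXRα, encoded by Nr1h3, and by signals from neighbouring endothelial cells, stellate cells and hepatocytes. In mouse steatohepatitis, resident cells that carry TIM4 are known to be lost in part and to be joined by monocyte-derived macrophages, which express Trem2, Gpnmb and Cd9 and gain some identity genes earlier than Timd4.

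The 250 bases before the RefSeq start of the members (GRCm38.p6) were searched for 5 short motifs of macrophage and niche factors. The members have 12 such windows, since Folr2 and Nr1h3 have a pair of starts each, and the Nr1h3 windows overlap and hold the same matches. The half-site of MAF factors (TGCTGA, or TCAGCA on the other strand) lies in 6 of the 12 windows (5 genes), against 16.1% of the 32851 windows searched. The core of PU.1 sites (GAGGAAG or CTTCCTC) lies in 3 of 12 (3 genes), against 10.6% of all. The RBPJ core (TGGGAA or TTCCCA) lies in 4 of 12 (3 genes), against 21.6%, the nuclear receptor half-site (AGGTCA or TGACCT) in 2 (2 genes), against 14%, and the SMAD element GGCGCC in 2, against 9.59%, which are 1 match in Nr1h3 seen from both starts. The shares are of windows, not of genes. A match is a run of letters in the window and not a measured site. Timd4, Clec4f, Spic and Marco are printed as examples of members that were called with the diet in macrophages and hold a MAF or PU.1 match. Nr1h3 and Vsig4 were called with the diet there too and hold no match of either motif. Timd4 is at chr11:46810549-46810798 on the plus strand, and Clec4f (chr6:83656117-83656366), Spic (chr10:88683024-88683273) and Marco (chr1:120505025-120505274) are on the minus strand. Capitals mark the MAF half-site in the first 3 and the PU.1 core in Marco.
Timd4: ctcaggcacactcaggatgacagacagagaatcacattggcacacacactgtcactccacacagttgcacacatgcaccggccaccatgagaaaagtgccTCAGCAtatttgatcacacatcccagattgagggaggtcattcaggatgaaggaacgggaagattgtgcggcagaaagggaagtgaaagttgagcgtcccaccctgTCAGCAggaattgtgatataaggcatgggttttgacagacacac
Clec4f: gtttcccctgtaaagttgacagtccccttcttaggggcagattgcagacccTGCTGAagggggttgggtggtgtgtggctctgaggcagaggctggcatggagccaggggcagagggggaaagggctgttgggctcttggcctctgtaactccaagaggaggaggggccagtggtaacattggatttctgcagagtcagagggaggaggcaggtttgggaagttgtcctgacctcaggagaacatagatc
Spic: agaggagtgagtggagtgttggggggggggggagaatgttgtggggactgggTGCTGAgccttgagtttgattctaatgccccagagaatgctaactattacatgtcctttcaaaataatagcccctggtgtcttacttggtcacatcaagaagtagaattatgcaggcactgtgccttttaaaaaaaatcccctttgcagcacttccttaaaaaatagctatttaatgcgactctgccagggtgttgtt
Marco: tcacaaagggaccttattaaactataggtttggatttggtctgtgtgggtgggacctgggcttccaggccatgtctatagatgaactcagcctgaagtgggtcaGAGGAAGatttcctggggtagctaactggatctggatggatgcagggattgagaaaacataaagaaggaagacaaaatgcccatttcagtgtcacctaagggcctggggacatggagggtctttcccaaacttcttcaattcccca

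Libraries held 16512356 to 24317721 counts in male macrophages and 17151791 to 26244679 in female macrophages, against 11245097 to 29966174 in male liver and 17917827 to 23669846 in female liver. Spp1, the osteopontin gene, lay at 7.10 to 11.5 CPM in male KI control macrophages against 0.277 to 0.550 CPM in male WT control, and at 1.43 to 2.36 CPM in female KI control against 0 to 0.193 CPM in female WT control. On the NASH diet the macrophage ranges overlapped. They were 41.45 to 199.6 CPM in male KI against 5.65 to 53.26 CPM in male WT. In females they were 2.21 to 97.1 CPM in KI against 1.19 to 11.8 CPM in WT. In NASH liver Spp1 lay at 22.5 to 66.0 CPM in male KI against 126.4 to 562.4 CPM in male WT. In female NASH liver it lay at 26.1 to 52.9 CPM in KI against 49.3 to 95.55 CPM in WT. Male liver WT control replicates 3 and 4 were 1 library in 2 versions and were averaged. In that library, and in macrophage male WT control replicate 4, the sex genes go against the label. Lyz2, the gene that holds Cre, stood at 42.2 to 167.8 CPM in 10 macrophage libraries and at 1447 CPM or more in the remaining 28. Low Lyz2 was found in male KI control 3, male WT control 4, female KI NASH 3 and 4, female KI control 1, 2 and 3, and female WT control 1, 3 and 4. In females the low level thus falls mostly in the control groups, and its part in the diet comparisons was not tested beyond leaving these libraries out. In liver Lyz2 was uneven too. It lay at 1.12 to 55.05 CPM in male KI NASH, 0.504 to 27.5 CPM in male KI control, 127 to 250.2 CPM in male WT NASH and 38.4 to 76.5 CPM in male WT control. In female liver it lay at 1.17, 1.23, 38.1 and 62.9 CPM in KI NASH and 22.7 to 44.99 CPM in KI control, against 1.29 to 2.19 CPM in WT NASH and 1.10 to 2.48 CPM in WT control. The labels do not account for these levels, and whether some libraries carry the wrong genotype or come from different batches was not tested.

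All 10 identity genes were higher in sorted macrophages than in total liver in each of the 8 groups of sex, genotype and diet (edgeR quasi-likelihood test, Benjamini-Hochberg adjusted p from 2.69e-23 to 0.016). The sort of these cells and the choice of genes made this direction likely beforehand, so the calls are given as a description. Over the 8 groups, 37.8% to 41.3% of all genes tested were called higher in macrophages: 40.7% in male KI NASH, 37.8% in male KI control, 40% in male WT NASH, 39.2% in male WT control, 41.3% in female KI NASH, 40.8% in female KI control, 40.3% in female WT NASH and 39.9% in female WT control. Counted in both directions, 81.1%, 79.9%, 80.5% and 79.5% of genes were called in male KI NASH, KI control, WT NASH and WT control, and 82.1%, 82.3%, 83.2% and 82.8% in the same female groups. The median log2 difference of the 10 genes lay between 4.26 in female WT NASH and 6.03 in male WT control, beside medians of all genes of -0.07 and -0.05. Macrophage and liver RNA were extracted with different kits and counted in different tables, so tissue, kit and table cannot be told apart. Levels in the 2 tissues were also scaled separately, so ratios of their CPM are not on the scale of the joint fits.

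The size of the difference separates the members. Nr1h3, encoding the sterol sensor LXRα, which hepatocytes express too, had the smallest, with log2 differences of 1.17 ± 0.10 (SE) in male KI NASH up to 2.49 ± 0.14 in female KI control. Its group means were 3.28 to 7.65 times as high in macrophages as in liver. Such ratios, here and below, use CPM scaled within each tissue and are larger than the joint fits give. Spic, an ETS transcription factor first known from iron-recycling macrophages of the spleen, stood at 47.05 to 243.7 CPM in macrophages and at 0.642 to 3.87 CPM in liver, with log2 differences of 4.94 ± 0.33 in female KI control up to 7.13 ± 0.34 in male WT control. Folr2, a folate receptor, Clec4f, a lectin particular to mouse Kupffer cells, and Cd5l, a secreted scavenger-like protein, had group means 48.7 to 132.5 times as high in macrophages. Marco and Cd163 varied most between groups. Marco, a scavenger receptor for bacteria and particles, had 6.50 times its liver level in female WT NASH and 119.6 times in male WT NASH. Cd163, the receptor for haemoglobin bound to haptoglobin, had 10.2 times its liver level in female KI control and 237 times in male WT NASH. Both male WT NASH values rest in part on liver replicate 4, the highest of its group for both genes: the fitted differences were 6.35 for Marco and 7.33 for Cd163, and 7.63 and 8.73 without that library. The Marco difference was 5.655 without macrophage male WT NASH replicate 1. The Marco difference in female WT NASH (log2 2.23, adjusted p = 0.016) was 1.88 with an adjusted p of 0.055 without liver female WT NASH replicate 2.

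**Figure D1:**
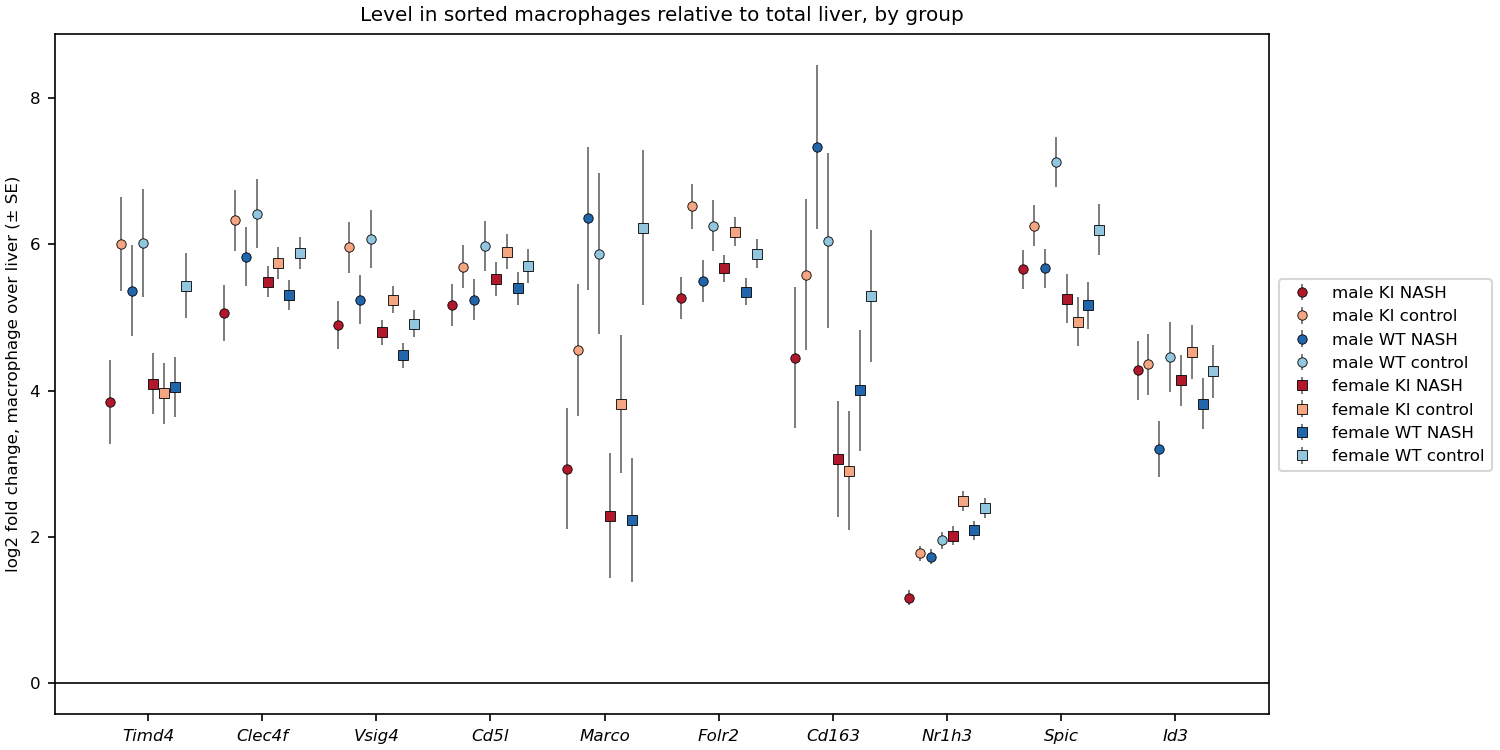
Fitted log2 fold change of each identity gene in sorted macrophages over total liver, with its SE; circles are male groups, squares female groups, and colours give genotype and diet. All points lie above 0; Nr1h3 lies between 1.17 and 2.49, and Marco and Cd163 spread most between groups.

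Divided by exonic length (GENCODE vM21), the order of the genes was similar between macrophage groups at the top and moved at the bottom. In male KI NASH macrophages Cd5l led with 4039 ± 816 CPM per kb (SD, n = 5), then Clec4f with 2266 ± 1160 and Vsig4, a complement receptor, with 853 ± 345 CPM per kb. In male WT control macrophages Cd5l stood at 5192 ± 723 (n = 4), Clec4f at 5014 ± 298 and Vsig4 at 1919 ± 266 CPM per kb. Cd5l and Clec4f lay within each other's spread there. At the low end, Marco at 172 ± 107, Nr1h3 at 157 ± 12.9 and Timd4 at 92.7 ± 64.4 CPM per kb lay within their spread in male KI NASH, and Spic was last at 36.4 ± 6.19. In female KI NASH macrophages, Spic at 26.6 ± 8.004 and Cd163 at 26.5 ± 31.8 CPM per kb (n = 6) were not apart. In liver Nr1h3 moved up. It was in second place in male KI NASH liver with 47.9 ± 5.66 CPM per kb (n = 4), beside Clec4f at 46.5 ± 14.3, and in second place in male WT control liver with 45.1 ± 1.59 (n = 3), beside Clec4f at 42.8 ± 10.5. Spic was last in every liver group.

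In male KI macrophages, 7 of the 10 identity genes fell on the NASH diet, where 24% of the 13036 genes tested were called and 8.94% were called lower. All 10 fitted changes lay below 0, with a median of -0.95 log2 beside 0.01 over all genes. The 7 were 4 surface proteins and all 3 transcriptional regulators, and the secreted Cd5l was not called. Groups that do not overlap are named here and below as a description. The share of all genes whose groups do not overlap was not counted.

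Timd4 encodes TIM4, the receptor for phosphatidylserine on dying cells, and marks long-lived resident Kupffer cells in mouse. It stood at 165, 29.3, 222, 175 and 417 CPM in the male KI NASH libraries 1 to 5, against 924, 869, 881 and 735 CPM in KI control. Every NASH library lay below every control library, and NASH replicate 2 was far down. The log2 fold change was -2.08 ± 0.49 (adjusted p = 0.0065).

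Clec4f stood at 3802, 3043, 5993, 4834 and 10320 CPM in male KI NASH, against 11360, 12970, 12760 and 11870 CPM in KI control (-1.13 ± 0.31, adjusted p = 0.016). Vsig4 stood at 1054, 781, 1328, 1054 and 2113 CPM in KI NASH, against 2362, 2562, 2234 and 2280 CPM in KI control (-0.90 ± 0.23, adjusted p = 0.011). Folr2 stood at 519, 463, 648, 547 and 903 CPM in KI NASH, against 1381, 1446, 1329 and 1250 CPM in KI control (-1.13 ± 0.20, adjusted p = 0.0013). In all 3 genes the groups did not overlap, and NASH replicate 5 was nearest to the control libraries.

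The transcription factors moved less and with less spread. Nr1h3 stood at 409, 410, 426, 342 and 389 CPM in male KI NASH, against 652, 619, 606.5 and 633 CPM in KI control (-0.67 ± 0.08, adjusted p = 0.00027). Spic stood at 121, 117, 144, 141 and 177 CPM in KI NASH, against 192, 196, 218 and 214 CPM in KI control (-0.55 ± 0.13, adjusted p = 0.0075). Neither gene's groups overlapped. Id3, an inhibitor of helix-loop-helix factors that mouse Kupffer cell development needs, had 703 to 867 CPM in KI NASH, against 873 to 1229 CPM in KI control (-0.39 ± 0.11, adjusted p = 0.015). Its call was lost without KI control replicate 3 (-0.31, adjusted p = 0.052), which has the highest value and is a low-Lyz2 library.

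The scavenger receptors were uneven and were not called by edgeR; DESeq2 called Marco lower (-1.71, adjusted p = 0.030). Marco had 470, 25.1, 545, 234.5 and 378 CPM in male KI NASH, against 1200, 1892, 394 and 810.5 CPM in KI control (log2 -1.70 ± 0.67, adjusted p = 0.073). Cd163 had 579, 27.3, 1137, 399 and 3213 CPM in KI NASH, against 2124, 2998, 1711 and 1755 CPM in KI control (-1.003 ± 0.84, adjusted p = 0.41). NASH replicate 2 was lowest for both, and NASH replicate 5 was the highest of all 9 libraries for Cd163. Cd5l had 6674 to 10950 CPM in KI NASH, against 9621 to 10010 CPM in KI control (-0.25 ± 0.16, adjusted p = 0.29), and its groups overlapped through NASH replicate 5.

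Other genes of the same cell moved beside the members in male KI macrophages, where 24% of all genes were called. Some of these lists moved in WT males too, as given below. Of 16 further Kupffer cell genes tested, 8 fell and none rose (6 to 12 with 1 library left out), with Hpgd, which degrades prostaglandins, at -1.14 ± 0.27 (adjusted p = 0.0071), and C6, a complement component at -1.28 ± 0.42 (adjusted p = 0.037). The C6 call was lost in 8 of 9 fits with a library left out, all but the one without KI NASH 5. Of 10 further transcription factors 4 fell, among them Id1 at -1.03 ± 0.29 (adjusted p = 0.017), lost without KI control replicate 3, and Rxra, the partner of LXRα, at -0.74 ± 0.17 (adjusted p = 0.0056). Of 12 LXR target genes 6 rose and 1 fell. Scd1, the stearoyl-CoA desaturase, rose by 2.08 ± 0.43 and Scd2 by 1.84 ± 0.32, while Smpdl3a, a phosphodiesterase, fell by 0.67 ± 0.155 (adjusted p = 0.0030, 0.0013 and 0.0055). Of 10 niche signal genes 3 rose, with the Notch ligands Jag1 at 3.31 ± 0.53 and Dll1 at 1.69 ± 0.47 (adjusted p = 0.00098 and 0.016), the Dll1 call lost without KI control replicate 2. Of 12 genes of recruited and lipid-associated macrophages, 11 rose in every fit with a library left out. Gpnmb stood at 784 ± 477 CPM (n = 5) in KI NASH and 1.20 ± 0.780 CPM (n = 4) in KI control, with a log2 change of 9.34 ± 1.65 (adjusted p = 0.0015). Cd63, a tetraspanin, stood at 145 ± 86.4 CPM in KI NASH and 2.83 ± 1.21 CPM in KI control (5.68 ± 1.13, adjusted p = 0.0026).

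The marker sums of hepatocytes, T and NK cells, neutrophils and cholangiocytes did not overlap between the same groups, and those of endothelial cells did. The summed level of 8 hepatocyte markers was 449 to 2686 CPM in male KI NASH macrophages, against 180.5 to 282 CPM in KI control, and that of 7 sinusoidal endothelial markers was 975.5 to 3658 CPM in KI NASH, against 1395 to 1517 CPM in KI control. All markers of both lists were detected, and all 8 hepatocyte markers were called higher in KI NASH. The 6 T and NK cell markers summed to 1.74 to 17.4 CPM in KI NASH, against 0.294 to 0.357 CPM in KI control, where 1 marker was at 0. The 5 neutrophil markers summed to 1.52 to 12.6 CPM in KI NASH, against 0.941 to 1.47 CPM in KI control. The 4 cholangiocyte markers summed to 0.808 to 5.35 CPM in KI NASH, against 0.344 to 0.5045 CPM in KI control. The part of these cells in the falls was not tested. Without the low-Lyz2 male libraries, KI control 3 and WT control 4, 6 of the 10 genes were called, all but Id3 of the 7.

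In male WT macrophages 2 of the 10 genes fell on the NASH diet, where 8.19% of genes were called and 2.83% were called lower, and the median change of the members was -0.53 beside 0.01 over all genes. Spic stood at 119, 148, 146, 144 and 201 CPM in WT NASH, against 220, 236, 233 and 197 CPM in WT control (-0.55 ± 0.13, adjusted p = 0.024). Nr1h3 stood at 543, 451, 525.6, 508 and 452 CPM in WT NASH, against 639, 622, 578 and 563 CPM in WT control (-0.28 ± 0.08, adjusted p = 0.042). The Nr1h3 groups did not overlap, and NASH replicate 5 of Spic lay within its control range. Both calls were fragile. Spic had adjusted p between 0.054 and 0.089 without WT control 1, 2 or 3 or WT NASH 1 or 4, at log2 values of -0.46 to -0.51. Nr1h3 had adjusted p between 0.063 and 0.21 without any WT control library or without WT NASH 2, 4 or 5, at -0.21 to -0.31. Without WT control 4 alone, the library with low Lyz2 and contradicting sex genes, Nr1h3 was not called (-0.31, adjusted p = 0.063) and Spic was. With KI control 3, the other low-Lyz2 male library, left out too, no member was called (Spic -0.56, adjusted p = 0.070; Nr1h3 -0.27, adjusted p = 0.12).

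The other members were uneven within the WT NASH group. Clec4f had 7342, 5387, 11630, 4003 and 9560 CPM in WT NASH, against 13250, 12430, 12430 and 11450 CPM in WT control (-0.71 ± 0.31, adjusted p = 0.17). Timd4 had 764, 215, 625.3, 267 and 532 CPM in WT NASH, against 968.5, 641, 884.5 and 1032 CPM in WT control (-0.88 ± 0.48, adjusted p = 0.28). Marco had 2335, 443, 374, 915 and 619.5 CPM in WT NASH, against 1028, 1624, 678 and 1008 CPM in WT control (-0.21 ± 0.66, adjusted p = 0.88). NASH replicates 2 and 4 were the lowest of the 9 libraries for Timd4 and Clec4f, and NASH replicate 1 was the highest for Marco. Vsig4 (-0.75, adjusted p = 0.054), Folr2 (-0.51, adjusted p = 0.11), Cd163 (-1.22, adjusted p = 0.39), Id3 (-0.11, adjusted p = 0.56) and Cd5l (0.12, adjusted p = 0.68) were not called. Of 7 sinusoidal endothelial markers 5 were called higher in WT NASH, with sums of 1191 to 3183 CPM in WT NASH, against 758 to 1227 CPM in WT control. The 5 neutrophil markers summed to 2.30 to 9.24 CPM in WT NASH, against 0.602 to 1.88 CPM in WT control, without overlap. The part of these cells was not tested. Of the 12 recruited and lipid-associated genes 8 rose, where 8.19% of all genes were called. The count was 3 to 9 with 1 library left out and 1 with both low-Lyz2 libraries left out. Gpnmb stood at 312 ± 393 CPM in WT NASH and 3.13 ± 4.43 CPM in WT control (6.61 ± 1.43, adjusted p = 0.018, lost without WT control 3 or 4). Of the further Kupffer cell genes 4 fell (0 to 5 with 1 library left out, 0 without both low-Lyz2 libraries). LXR targets rose in 4 genes (2 to 4, and 2 in the same fits) and niche signal genes in 4 (0 to 5, and 0). None of the further transcription factors was called.

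**Figure D2:**
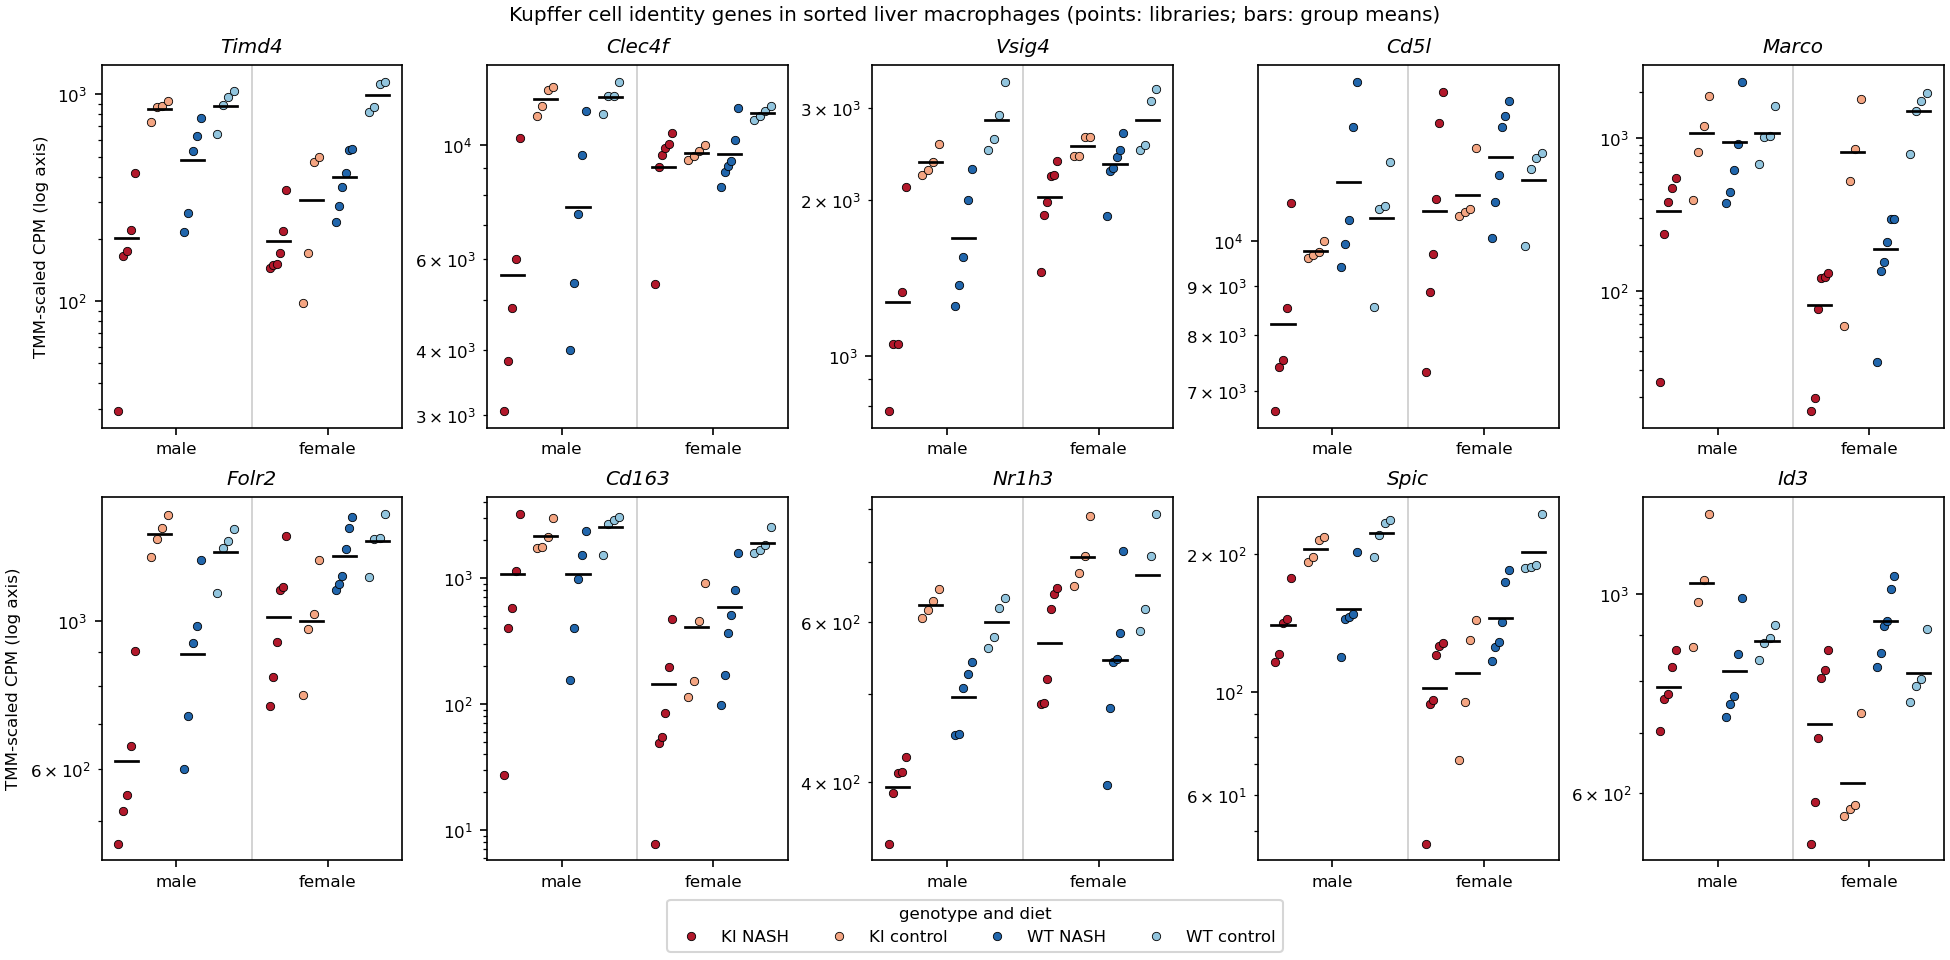
TMM-scaled CPM (counts relative to library size) of the 10 identity genes in each sorted macrophage library, on log axes; points are libraries coloured by genotype and diet, and bars are group means. In males the KI NASH points of Timd4, Clec4f, Vsig4, Folr2, Nr1h3, Spic and Id3 lie below all KI control points, and in females the WT NASH points of Timd4 and Marco lie below all WT control points.

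The diet effect itself was not shown to differ between KI and WT males: none of the 10 genes had a called interaction and neither had any of the 13036 genes (0% called; the unadjusted p was under 0.05 in 1595 genes). By DESeq2 there was 1 of the 10, Nr1h3 (-0.41, adjusted p = 0.016). The interaction was -1.21 ± 0.69 for Timd4 (adjusted p = 0.50), -0.62 ± 0.28 for Folr2 (adjusted p = 0.37) and -0.39 ± 0.11 for Nr1h3 (adjusted p = 0.18).

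Between KI and WT males on the NASH diet, Nr1h3 was lower in KI (-0.33 ± 0.07, adjusted p = 0.026), where 3.13% of genes were called and 0.506% were called lower. Its values, given above, did not overlap between KI NASH and WT NASH. The call was lost without WT NASH 1, 3 or 5 or KI NASH 4, at -0.29 to -0.36 with adjusted p of 0.063 to 0.080. In the same comparison 7 of the 8 hepatocyte markers were higher in KI, with sums of 449 to 2686 CPM in KI NASH, against 66.8 to 312 CPM in WT NASH, and their part was not tested. Leaving out KI NASH replicate 5, the library with the highest Clec4f, Vsig4, Folr2 and Cd163 of its group, gave 5 called members in place of 1, all lower in KI: Nr1h3, Timd4 (-1.73), Folr2 (-0.74), Vsig4 (-0.70) and Cd5l (-0.64). Leaving out WT NASH replicate 4 gave 3, Nr1h3, Folr2 (-0.67) and Cd5l (-0.57). In all libraries Timd4 had -1.25 ± 0.46 (adjusted p = 0.18), Cd5l -0.49 ± 0.15 (adjusted p = 0.10) and Marco -1.50 ± 0.64 (adjusted p = 0.24). On the control diet no member and none of the 13036 genes was called between KI and WT males (0% called by edgeR; the unadjusted p was under 0.05 in 862 genes; 0 members by DESeq2). All 10 fitted differences lay between -0.27 and 0.22.

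On the NASH diet WT female macrophages had 2 of the 10 genes called lower, where 12.9% of genes were called and 4.42% were called lower, with a median change of -0.30 beside -0.01 over all genes. Timd4 had 240 CPM at the lowest, 387 at the median and 547 at the highest of 6 WT NASH libraries, against 1150, 1117, 819 and 873 CPM in WT control (-1.31 ± 0.36, adjusted p = 0.026). Marco had 33.9, 181 and 295 CPM at the lowest, median and highest in WT NASH, against 1962, 1750, 786 and 1492 CPM in WT control (-3.00 ± 0.71, adjusted p = 0.013). Neither gene's groups overlapped. The Timd4 call was lost without WT control 1 or 2 or WT NASH 3 or 5, at -1.20 to -1.28 with adjusted p of 0.051 to 0.067. The Marco call was kept in every fit with 1 library left out. Without the 3 low-Lyz2 libraries WT control had 1 library left, and neither was called (Timd4 -1.49, adjusted p = 0.21; Marco -3.23, adjusted p = 0.20).

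In KI females Marco alone was called lower on the NASH diet, where 2.31% of genes were called and 0.522% were called lower. It had 16.2, 98.4 and 130 CPM at the lowest, median and highest of 6 KI NASH libraries, against 1803, 845, 521 and 58.3 CPM in KI control (-3.32 ± 0.72, adjusted p = 0.027). KI control replicate 4 lay inside the NASH range, and it is the only KI control library at the high level of Lyz2. The call was lost without KI control 1, 2 or 3 or KI NASH 2, at -2.55 to -3.48 with adjusted p of 0.053 to 0.086. Set against KI control replicate 4 alone, with the low-Lyz2 libraries left out, the fitted change was 0.31 (adjusted p = 0.93), so its direction turned.

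Clec4f, Folr2 and Cd5l were not called with the diet in female macrophages. Clec4f had 5369, 9717 and 10560 CPM at the lowest, median and highest in KI NASH, against 9364 to 10010 CPM in KI control (-0.09 ± 0.14, adjusted p = 0.78). In WT it had 8288 to 11800 CPM in NASH, against 11170 to 11890 CPM in control (-0.26 ± 0.14, adjusted p = 0.22). Folr2 changed by 0.02 ± 0.15 in KI and -0.07 ± 0.15 in WT, and Cd5l by -0.05 ± 0.15 in KI and 0.08 ± 0.15 in WT. Cd163 was uneven again, with 7.78 to 475 CPM in KI NASH, against 113 to 917 CPM in KI control (-1.50 ± 0.83, adjusted p = 0.33), and 98.1 to 1574 CPM in WT NASH, against 1559 to 2528 CPM in WT control (-1.70 ± 0.82, adjusted p = 0.18). None of these differences was called. Vsig4, Nr1h3, Spic and Id3 were not called with the diet in females either. The group means of Id3 were higher on the NASH diet, at 934 against 816 CPM in WT and 717 against 615.5 CPM in KI. Those of Vsig4, Nr1h3 and Spic were lower in both genotypes. Spic had 117 to 184 CPM in WT NASH, against 186 to 244 CPM in WT control, without overlap.

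KI females on the control diet had lower Timd4 than WT females. Timd4 had 468.5, 171, 500 and 98.3 CPM in KI control, against 1150, 1117, 819 and 873 CPM in WT control, without overlap (-1.68 ± 0.41, adjusted p = 0.026). It was the 1 member called, where 4.64% of genes were called and 1.91% were called lower. The call was lost without WT control 1 or 2 or KI control 2, at -1.48 to -1.62 with adjusted p of 0.060 to 0.091. With the low-Lyz2 libraries left out, 1 library a group remained and the difference was -3.51 (adjusted p = 0.16). Spic (-0.87 ± 0.25, adjusted p = 0.053) was just outside the threshold, and Cd163 had -2.21 ± 0.95 (adjusted p = 0.18). In the same comparison 2 of the 12 recruited and lipid-associated genes were higher in KI, Cx3cr1, the fractalkine receptor, at 32.3 ± 9.78 CPM in KI control and 2.10 ± 0.391 CPM in WT control (3.95 ± 0.62, adjusted p = 0.0015), and Cd9 (2.23 ± 0.54, adjusted p = 0.024), the Cd9 call lost in 5 of 8 fits with a library left out. The hepatocyte markers summed to 26.65 to 72.0 CPM in KI control, against 121 to 364 CPM in WT control, where 2 of 8 were called lower in KI. Of 5 stellate cell markers 4 were also lower in KI. Other sums were higher in KI without overlap. T and NK cell markers summed to 2.55 to 5.07 CPM in KI control, against 0.154 to 0.843 CPM in WT control. Neutrophil markers summed to 1.85 to 3.67 CPM in KI control, against 1.15 to 1.69 CPM in WT control. The part of these cells was not tested. On the NASH diet no member was called between KI and WT females (0.561% of genes called), with Timd4 at -1.02 ± 0.33 (adjusted p = 0.12). No interaction of diet and genotype was called among the members in females (0.288% of genes called).

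The diet effect in WT was not called as different between females and males for any member (0.0224% of 13373 genes called), with Marco at -2.81 ± 1.02 (adjusted p = 0.17) and Clec4f at 0.43 ± 0.35 (adjusted p = 0.52). Nor was the KI effect on the NASH diet called as different for any member (4.37% of genes called).

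In female WT macrophages 9 of the 12 recruited and lipid-associated genes rose on the diet (7 to 10 with 1 library left out). Of all genes 12.9% were called there and 4.42% were called lower. Mmp12, the macrophage elastase, stood at 570 ± 406 CPM in WT NASH and 15.5 ± 2.02 CPM in WT control (5.21 ± 0.78, adjusted p = 0.00079). Of the 16 further Kupffer cell genes 5 fell (2 to 4 with 1 library left out), among them Slc40a1, the iron exporter ferroportin, by 0.65 ± 0.13 (adjusted p = 0.0064). Of the LXR targets 8 of 12 rose, with Scd1 at 1.98 ± 0.41 (adjusted p = 0.0064). In KI females, where 2.31% of all genes were called, 2 recruited and lipid-associated genes rose, Mmp12 at 3.36 ± 0.70 (adjusted p = 0.024) and Fabp5 at 2.61 ± 0.53 (adjusted p = 0.023). The Mmp12 call was lost without KI control 1, 3 or 4 and the Fabp5 call without KI control 1 or 3, and the count ran between 0 and 7 with 1 library left out. Without the low-Lyz2 libraries each control group had 1 library, and none of these genes was called, at fitted changes of 5.095 for Mmp12, 1.80 for Scd1 and -0.62 for Slc40a1 in WT and 4.21 for Mmp12 and 3.003 for Fabp5 in KI. The hepatocyte markers summed to 57.2 to 638 CPM in KI NASH, against 26.65 to 72.0 CPM in KI control, and to 231 to 1813 CPM in WT NASH, against 121 to 364 CPM in WT control. These ranges overlapped between the diets. The 4 monocyte markers summed to 88.4 to 199.5 CPM in WT NASH, against 240.9 to 292.5 CPM in WT control, without overlap. In KI the monocyte sums overlapped. The 5 stellate cell markers summed to 32.1 to 122.5 CPM in KI NASH, against 16.3 to 31.75 CPM in KI control. The part of these cells was not tested.

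**Figure D3:**
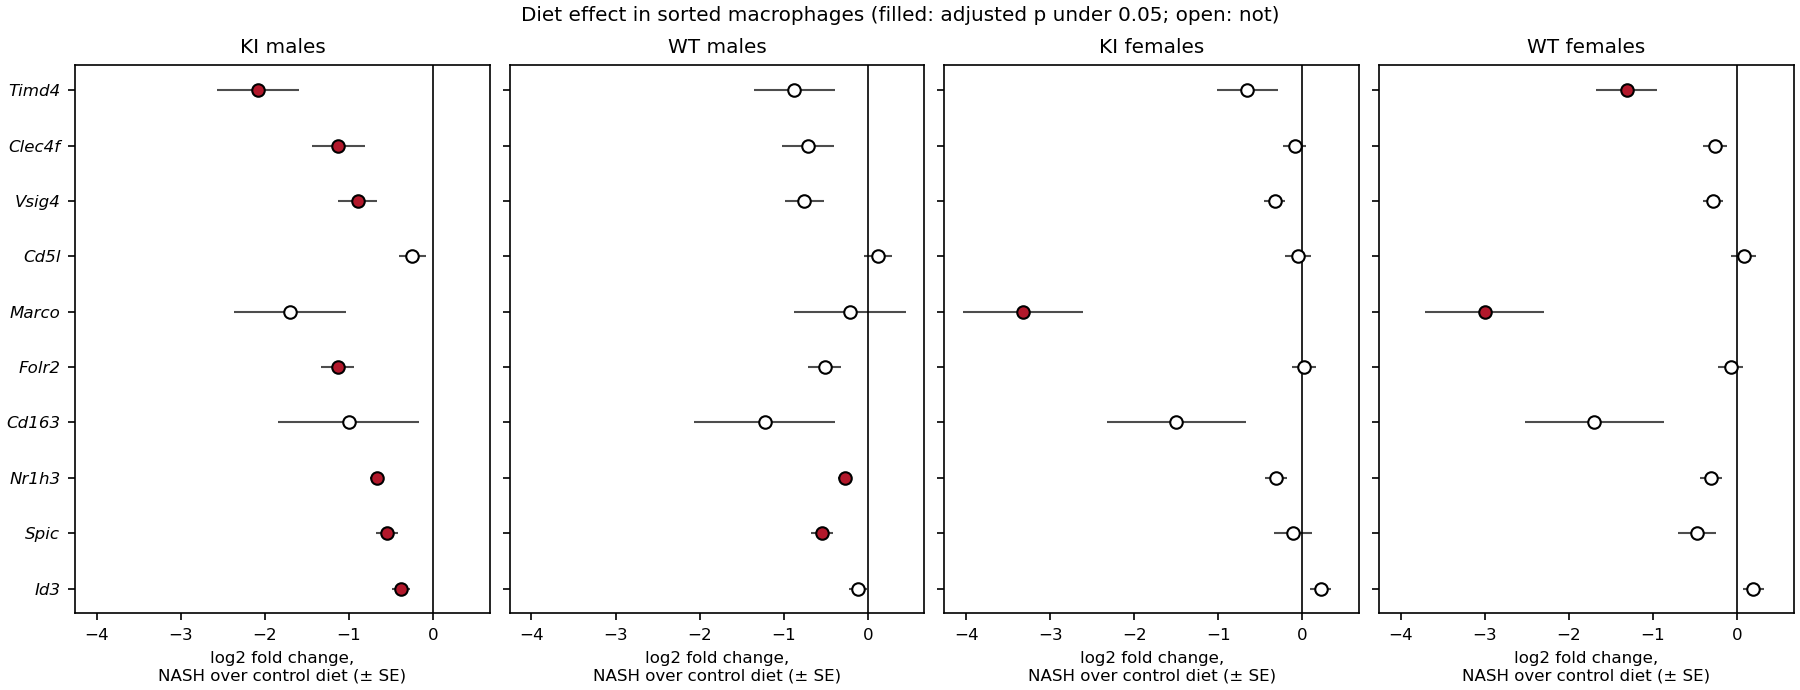
Fitted log2 fold change of each identity gene with the NASH diet over the control diet in sorted macrophages, with its SE, in KI and WT males and KI and WT females; filled points have an adjusted p under 0.05. KI males have 7 filled points, WT males 2 (Nr1h3 and Spic), KI females 1 (Marco) and WT females 2 (Timd4 and Marco).

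Across the 38 macrophage libraries the members fell into sets that moved together, given here as a description, since the libraries share groups and depth. Clec4f and Vsig4 had a Pearson r of 0.929 on log2 CPM (0.892 after group means were removed), Clec4f and Folr2 0.896 (0.801), and Vsig4 and Folr2 0.888 (0.807). Timd4 and Cd163 had 0.805 (0.745), Marco and Cd163 0.776 (0.565), and Timd4 and Marco 0.752 (0.669). Vsig4 and Nr1h3 had 0.695, and 0.171 after group means were removed. The lowest was Nr1h3 with Id3, at -0.00244, and 0.222 after group means were removed. The lowest after that removal was Marco with Id3, at -0.0948 (0.173 before). Of the 13372 genes ranked for each, those most like Timd4 were Gstp2 (0.936), Ric3 (0.934), Xlr (0.917) and Ptprm (0.911). Those most like Clec4f were Syp (0.935), Agmo (0.933), Vsig4 (0.929) and C6 (0.927), and those most like Marco were C2 (0.856), Zfp37 (0.821), Gstp2 (0.818) and Vac14 (0.806). Gstp2 may share reads with its near copies.

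**Figure D4:**
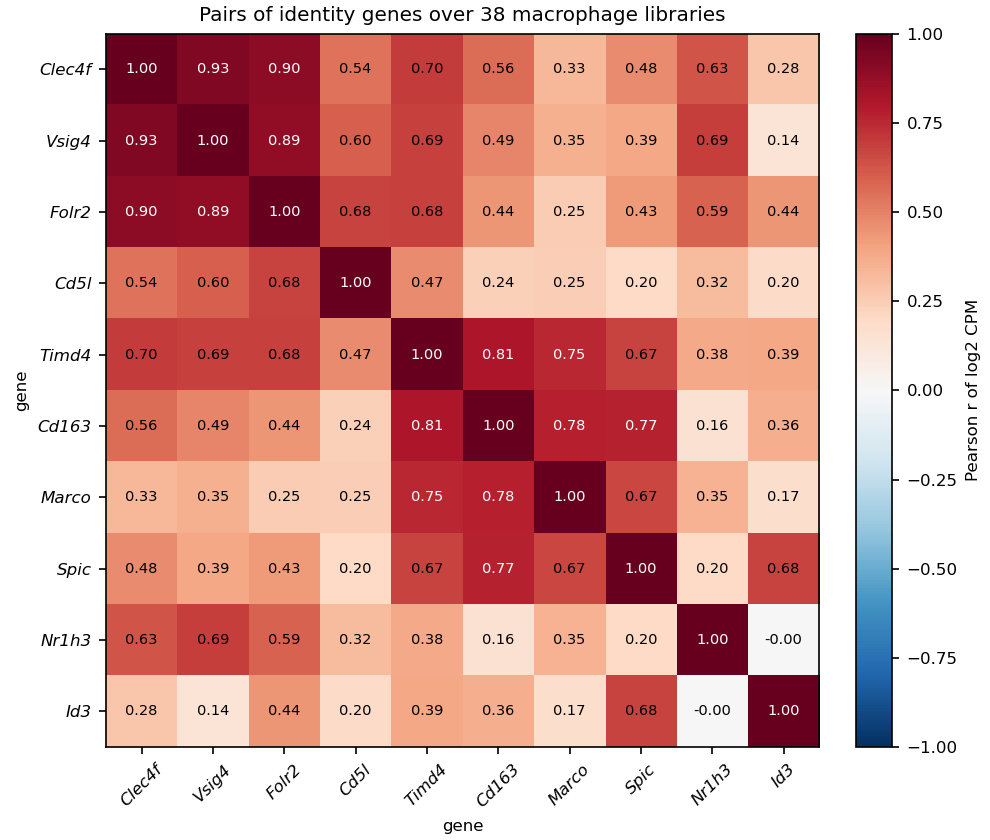
Pearson correlation of log2 CPM between each pair of identity genes over the 38 macrophage libraries, written in each cell and coloured from -1 to 1. Clec4f, Vsig4 and Folr2 form a block of 0.888 to 0.929, and Nr1h3 and Id3 are near 0.

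In total liver, where fewer cells of a type and less RNA per cell cannot be told apart, 2 of the 10 identity genes had a difference of diet or genotype called by edgeR, Cd163 and Folr2. In male KI liver no member and none of the 12988 genes was called with the diet (0% called by edgeR; the unadjusted p was under 0.05 in 847 genes; 0 members by DESeq2). Timd4 had 5.29, 10.8, 8.83 and 13.8 CPM in male KI NASH liver, against 10.8, 10.15, 8.79 and 7.06 CPM in KI control. Clec4f had 69.1, 107, 133 and 150 CPM in KI NASH, against 130, 104, 95.3 and 93.4 CPM in KI control. In both genes the NASH values spanned the whole control range.

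Cd163 was the member with called differences in liver. In male WT liver it fell on the NASH diet to 0.131, 3.43, 1.86 and 12.8 CPM, against 22.1, 28.6 and 32.8 CPM in WT control (-2.59 ± 0.75, adjusted p = 0.026), where 21% of genes were called and 9.74% were called lower. The call was lost without WT control 2 or WT NASH 2 or 3 (-2.33 to -2.58, adjusted p of 0.058 to 0.069), and the value was -4.005 without WT NASH 4. Without the library whose sex genes go against its label, only replicates 1 and 2 of WT control were left. Then 4 members were called, Cd163 lower and Cd5l (1.06), Id3 (1.75) and Spic (1.40) higher on the NASH diet. Spic was low in these groups, at 1.44 to 2.32 CPM in WT NASH and 0.642 to 1.90 CPM in WT control with all its libraries. In the same WT comparison the marker sums of 4 of 10 other cell types did not overlap. The 8 hepatocyte markers summed to 87240 to 104300 CPM in WT NASH, against 126300 to 198200 CPM in WT control (5 called lower, 1 higher). The 4 monocyte markers summed to 18.04 to 44.1 CPM in WT NASH, against 6.76 to 15.8 CPM in WT control, the 5 dendritic cell markers to 3.48 to 8.55 against 2.49 to 3.105 CPM, and the 4 cholangiocyte markers to 8.62 to 59.9 against 4.76 to 7.06 CPM. All these markers were detected, and their part was not tested. In KI males on the NASH diet Cd163 had 21.2, 55.4, 40.0 and 19.4 CPM, above all 4 WT NASH libraries (2.88 ± 0.72, adjusted p = 0.0070), where 37% of genes were called and 19.6% were called higher, and this call was kept in every fit with 1 library left out. There the monocyte markers summed to 5.55 to 17.6 CPM in KI NASH, against 18.04 to 44.1 CPM in WT NASH, and the 5 stellate cell markers to 261.6 to 336.3 CPM in KI NASH, against 444 to 565 CPM in WT NASH, and B cell and erythroid sums did not overlap either. In female KI liver Cd163 fell to 19.2, 9.66, 5.16 and 16.2 CPM on the NASH diet, against 39.35, 41.2, 39.5 and 40.2 CPM in KI control (-1.68 ± 0.32, adjusted p = 0.0084), also kept in every such fit. The 5 neutrophil markers summed to 3.30 to 7.31 CPM in KI NASH, against 7.35 to 39.3 CPM in KI control, the 1 of 10 such sums without overlap. The part of these cells in the Cd163 differences was not tested. No interaction was called for it in males (2.73 ± 0.99, adjusted p = 0.16; 1.13% of genes called; 4.125, adjusted p = 0.035, without WT NASH 4) or females (-1.25 ± 0.44, adjusted p = 0.11; 4.77% of genes called).

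Folr2 was the other member called in liver. It had 17.5, 14.3, 12.7 and 12.9 CPM in female KI NASH liver, against 9.74, 10.02, 9.54 and 11.5 CPM in KI control (0.49 ± 0.13, adjusted p = 0.034). With Cd163 this makes 1 member higher and 1 lower, where 8.83% of genes were called, 4.21% higher and 4.63% lower. The Folr2 call was lost in 6 of 8 fits with a library left out, all but those without KI NASH 3 or 4 (0.38 to 0.55, adjusted p of 0.051 to 0.092). DESeq2 called Timd4 lower in this comparison too (-0.83, adjusted p = 0.047). On the control diet Folr2 was lower in KI than in WT female liver, where WT had 15.7, 15.1, 14.45 and 19.98 CPM (-0.68 ± 0.13, adjusted p = 0.011), the 1 member called where 7.57% of genes were called and 3.53% were called lower. That call was kept in every fit with 1 library left out. In the same comparison the 4 B cell markers summed to 1.61 to 3.81 CPM in KI control, against 6.28 to 8.31 CPM in WT control, and their part was not tested. No member was called with the diet in female WT liver (0.0526% of genes called), between KI and WT female liver on the NASH diet (0.0901% of genes called; DESeq2 called Timd4 and Folr2 lower in KI), or between KI and WT male liver on the control diet (4.67% of genes called).

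Genes of recruited macrophages were called in male liver too. Of the 12 listed, 10 rose and 1 fell with the diet in WT males, where 21% of all genes were called and 9.74% were called lower. Mmp12 stood at 29.0 ± 5.86 CPM in WT NASH and 0.538 ± 0.341 CPM in WT control (5.68 ± 0.59, adjusted p = 0.00011). Fabp5, a fatty acid binding protein, was the gene that fell (-3.29 ± 0.51, adjusted p = 0.0013). Between KI and WT males on the NASH diet 10 were lower in KI (8 to 10 with 1 library left out). There 37% of all genes were called and 19.6% were called higher. Gpnmb stood at 0.538 ± 0.350 CPM in KI NASH and 33.1 ± 17.2 CPM in WT NASH (-5.99 ± 0.76, adjusted p = 0.00013). Among the other transcription factors Spi1, encoding PU.1, rose with the diet in WT males (1.19 ± 0.22, adjusted p = 0.0030) and was lower in KI than in WT on the NASH diet (-0.96 ± 0.19, adjusted p = 0.0020).

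The effects were also compared directly between macrophages and liver. The diet effect in WT males was more negative in macrophages for Spic (-1.45 ± 0.38, adjusted p = 0.012, where 12.7% of genes were called and 8.74% were more negative). Its change within macrophages was -0.55. In liver it lay near the floor, at 1.44 to 2.32 CPM in WT NASH against 0.642 to 1.90 CPM in WT control. The difference of KI and WT on the NASH diet in males was more negative in macrophages for Marco (-3.42 ± 1.09, adjusted p = 0.022) and Nr1h3 (-0.56 ± 0.14, adjusted p = 0.0046), where 25.2% of genes were called and 10.4% were more negative. The diet effect in WT females was more negative in macrophages for Marco (-3.99 ± 1.18, adjusted p = 0.040; 5.42% of genes called, 1.97% more negative). For the difference of KI and WT on the NASH diet in females no member was called (0.0849% of genes called). The Spic call was lost without liver male WT control 1 or 2 (-1.14 and -1.19). The male Marco call was lost without macrophage male WT NASH 1, liver male WT NASH 1 or liver male KI NASH 2 (-2.72 to -3.04). The female Marco call was lost in 12 of the 18 fits with a library left out (-3.22 to -4.21). The Nr1h3 call was kept in every such fit. Without macrophage male KI NASH 5, Timd4 (-2.005), Clec4f (-1.13) and Cd163 (-3.93) were called too in the male comparison of KI and WT.

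**Figure D5:**
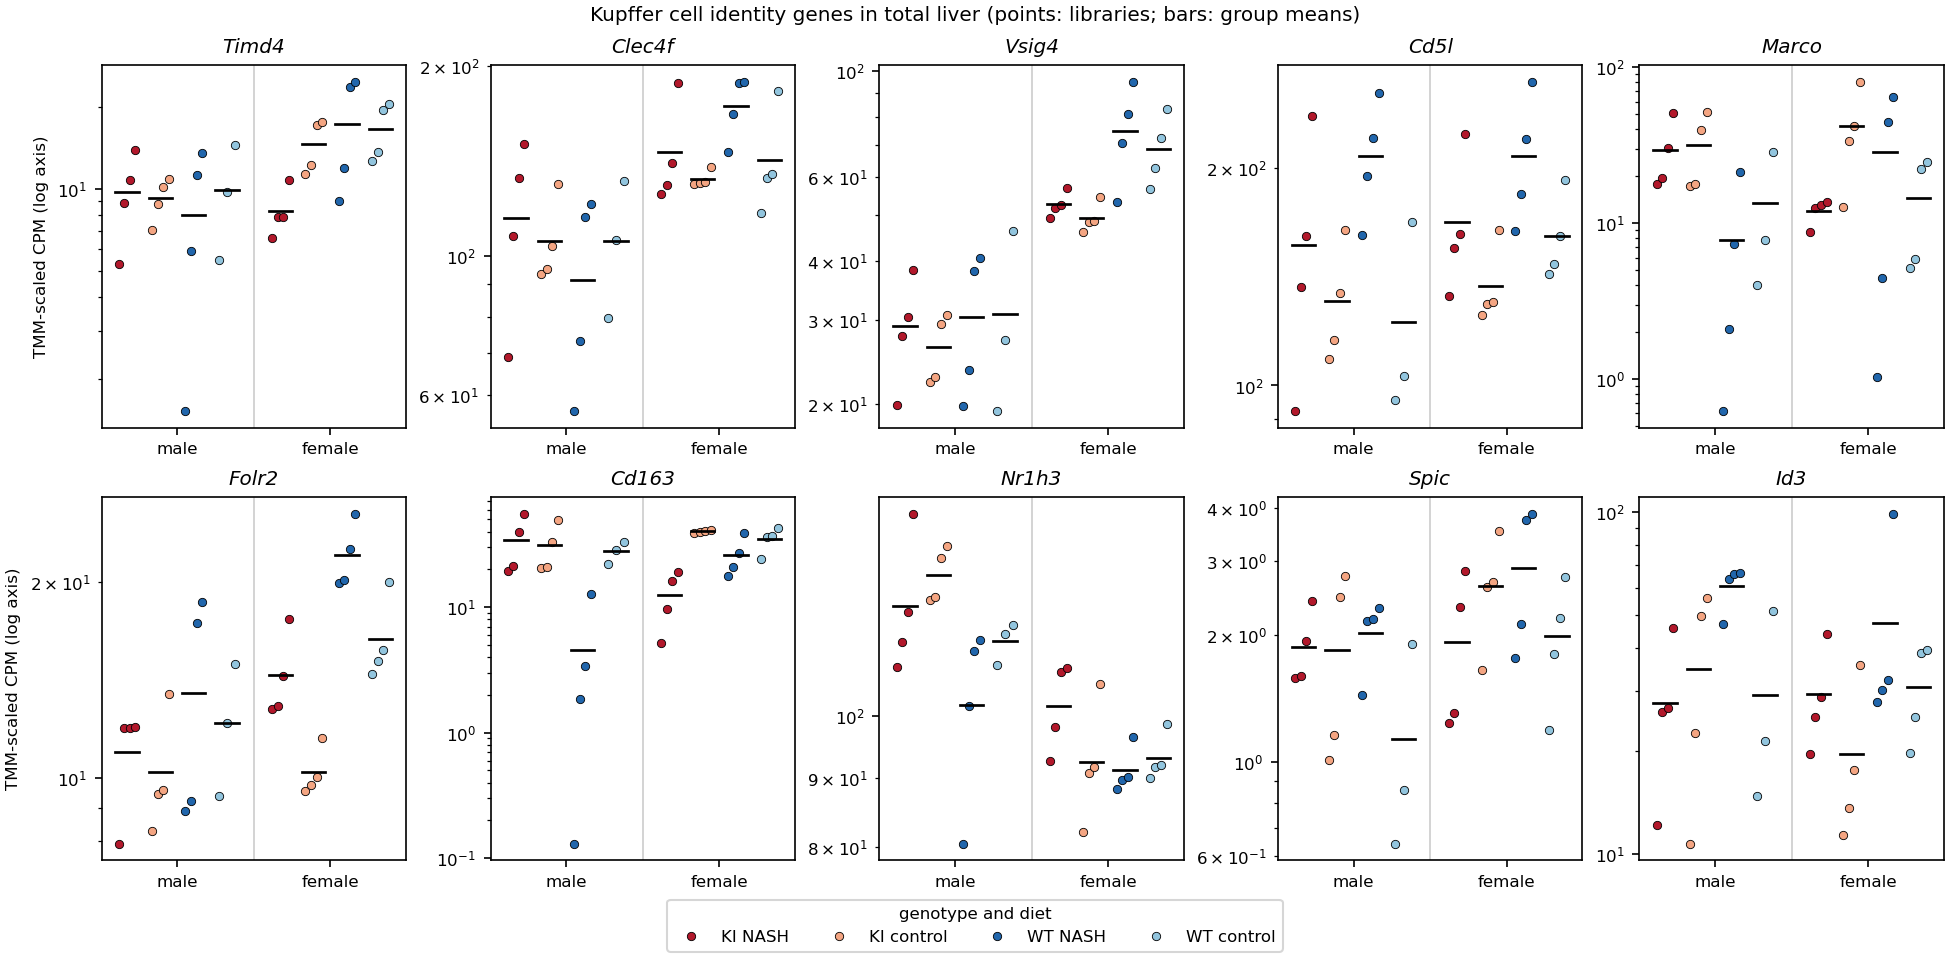
TMM-scaled CPM (counts relative to library size) of the 10 identity genes in each total liver library, on log axes; points are libraries coloured by genotype and diet, and bars are group means. Among male libraries those of WT NASH stand lowest for Cd163, at 0.131 to 12.8 CPM, while Timd4 and Clec4f overlap between diets in male KI liver.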

How the data were processed

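Gene counts were used as the authors deposited them, in 3 tables of raw whole-number counts (female liver, male liver, sorted macrophages) for 70 libraries. The genome build is mm10, per the submitters' processing notes, and no label or header names the aligner, the counter, the annotation or the strand setting (not given in the sources used here). Male liver WT control 3 and 4 differed by less than sampling noise (mean chi-square under 1 in 1 of 122 library pairs compared) and were averaged, leaving 69 libraries in 16 groups. Each tissue and sex was fitted with edgeR 4.0.16 (R 4.3.3): TMM scaling, filterByExpr (minimum count 10), quasi-likelihood tests, Benjamini-Hochberg adjustment over all genes tested, threshold 0.05. Macrophages and liver, and the sexes, were compared in joint fits, 34 comparisons in all. Standard errors are the log2 change over the root of F. CPM are scaled within a tissue and sex. Fits were tested on simulated data. Alternatives were DESeq2 1.42.0, its size factors, no filter, a replicate block, leaving out single or mismatched libraries and, chosen after seeing the data, the low-Lyz2 ones (under 500 CPM). Correlations used log2 CPM with a prior count of 2. Promoters are RefSeq's. Named genes are the 10 members, the called extremes of each related list and the 4 genes most like a member. Members and lists were chosen with earlier results of these data known.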

Additional observations from a re-analysis of the deposited data

Results flagged for a closer look

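In 11 of 150 sets of 4 to 6 libraries, each set being 1 gene in 1 group, 1 library stood far from the others by Dixon's criterion. Chance gives this in about 1 set in 20 for independent sets of normal values. The sets here share libraries and the CPM were not logged, so that rate is no measure for the 11 flagged sets. In macrophages these were Marco in male WT NASH replicate 1 (2335 CPM), Timd4 in female KI NASH replicate 1 (343 CPM), Clec4f in female KI NASH replicate 5 (5369 CPM), Cd5l and Id3 in female KI control replicate 2 (12500 and 737.5 CPM) and Spic in female WT control replicate 1 (243.7 CPM). In liver they were Folr2 in male KI NASH replicate 1 (7.935 CPM), Id3 in male WT NASH replicate 3 (47.07 CPM), Clec4f in female KI control replicate 2 (138.5 CPM), Cd5l in female KI control replicate 1 (164.2 CPM) and Id3 in female WT NASH replicate 4 (98.86 CPM). The test of the difference itself called 4 effects as unlike between macrophages and liver (edgeR, adjusted p under 0.05): Spic with the diet in WT males (-1.45 log2), Marco and Nr1h3 between KI and WT males on the NASH diet (-3.42 and -0.56) and Marco with the diet in WT females (-3.99).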

How the results depend on the processing

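The 10 members were called higher in macrophages than in liver in each of the 8 groups, and the male KI diet count was 6 to 7 of 10 with 1 library left out and 8 with DESeq2 (7 called). The 103 called results of single members, 80 of them macrophage over liver, had 481 alternatives other than leaving out 1 library. Of these 468 kept the call. The calls not kept were all of diet or genotype within 1 tissue. None was of macrophage over liver, so the total says little of how stable the diet and genotype calls are. In 1 alternative the direction reversed, Marco in female KI macrophages with the diet, at 0.31 without the low-Lyz2 libraries. Outside the 103 results, 22 calls were gained among members not called. Counts of called members moved as follows. For male WT macrophages with the diet (2 called), DESeq2 gave 3, its size factors 1, no filter 1, the block 5, leaving out the mismatched library 1, leaving out low-Lyz2 libraries 0, and single libraries 0 to 4. For KI against WT male macrophages on NASH (1), DESeq2 gave 2 and single libraries 0 to 5, and for the male interaction (0) DESeq2 gave 1. For female WT macrophages with the diet (2), the block gave 1, low-Lyz2 libraries left out 0 and single libraries 1 to 3. For female KI macrophages with the diet (1), the block gave 0, low-Lyz2 libraries left out 0 and single libraries 0 to 1. For KI against WT female macrophages, the NASH count (0) was 1 with DESeq2 and 0 to 1 with single libraries left out, and the control count (1) was 2 with the block, 3 with DESeq2, 0 without low-Lyz2 libraries and 0 to 1 without single ones. In male liver the WT diet count (1) was 2 with DESeq2, 4 without the mismatched library and 0 to 4 without single ones, the KI against WT count on NASH (1) was 2 with the block and 1 to 2 without single ones, and the interaction (0) was 0 to 1. In female liver the KI diet count (2) was 3 with DESeq2, 1 with the block and 1 to 2 without single libraries, the KI against WT count was 2 with DESeq2 on NASH (0; 0 to 1 without single libraries) and 2 with DESeq2 on control (1). Between macrophages and liver, the male WT diet count (1) was 2 without mismatched libraries and 0 to 2 without single ones, the male KI against WT count (2) was 3 with DESeq2 and 1 to 5 without single libraries, and the female WT diet count (1) was 0 to 1. Between the sexes the KI against WT count on NASH (0) was 0 to 1. The cause of these moves was not tested. Replicate numbers did not pair the libraries: none of 24 group pairs (0) had every correlation over 0.1, with values from -0.363 to 0.556, so the block shares a number only.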
